A study of Mus musculus with 36 samples.

Results

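The Serpina antiprotease cluster is a row of serine protease inhibitor genes on mouse chromosome 12, and 10 of its genes are described here in the liver: Serpina1a, Serpina1b, Serpina1c, Serpina1d, Serpina1e, Serpina3k, Serpina3m, Serpina3n, Serpina6 and Serpina4-ps1. They were found by symbol among the 49315 genes of the deposited table, and all 10 had at least 1 TPM (transcripts per 1000000 transcripts, a level corrected for gene length and library total) in at least 4 of the 36 libraries. Serpina1e and Serpina4-ps1 were selected on their large falls with T0901317 in W/W mice, so for that comparison all members are described with no test. PolyA RNA was sequenced from the liver of each mouse, all of them males, 11 to 12 weeks old, in 9 groups of 4. CRISPR had been used to change tryptophan (W) 441 of the nuclear receptor LXRalpha to phenylalanine (F). The study's design text pairs LXRalpha with the symbol Nr1h2, whereas its usual symbol is Nr1h3. W/W mice were the homozygous controls, W/F mice were heterozygous and F/F mice were homozygous for the change. In each genotype, mice of a separate cohort stayed on normal chow. The other 2 groups of each genotype were fed the Teklad diet TD.96121, high in cholesterol and fat, to bring on MASH (metabolic dysfunction-associated steatohepatitis) for 4 weeks, and over the last 2 weeks received either vehicle or T0901317, a synthetic LXR agonist, at 10 mg/kg by daily gavage. Summed gene levels cannot show the substitution at residue 441, so the genotype labels could not be checked here. Because the chow mice were another cohort, diet and cohort cannot be told apart, and in whole liver fewer hepatocytes and less RNA per hepatocyte cannot be told apart either.

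Serpins are suicide inhibitors. A protease cuts an exposed loop of the serpin, the serpin changes shape and the enzyme is trapped in a dead complex, so that each molecule of inhibitor is used once. Hepatocytes secrete most of the clade A serpins of blood plasma. Serpina1a to Serpina1e are mouse copies of the gene for alpha1-antitrypsin, the main plasma inhibitor of neutrophil elastase, and their proteins differ in the reactive loop that sets which protease is caught. Serpina3k, Serpina3m and Serpina3n belong to a group related to human alpha1-antichymotrypsin, of which Serpina3n is an acute-phase gene that rises in inflammation. Serpina6 encodes corticosteroid-binding globulin, which inhibits no protease and carries glucocorticoids in blood. Serpina4-ps1 is annotated as an unprocessed pseudogene, a copy that kept its exons and introns but is not annotated to make protein.

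The 5 antitrypsin copies sit side by side on the minus strand (GRCm38, GENCODE M21): Serpina1b (ENSMUSG00000071178) at chr12:103728156-103830373, Serpina1d (ENSMUSG00000071177) at chr12:103763594-103773592, Serpina1a (ENSMUSG00000066366) at chr12:103853589-103863562, Serpina1c (ENSMUSG00000079015) at chr12:103894926-103904887 and Serpina1e (ENSMUSG00000072849) at chr12:103946931-103958975. On the plus strand lie Serpina4-ps1 (ENSMUSG00000092075) at chr12:104080649-104086724, Serpina3k (ENSMUSG00000058207) at chr12:104338486-104346144, Serpina3m (ENSMUSG00000079012) at chr12:104338486-104394257 and Serpina3n (ENSMUSG00000021091) at chr12:104406729-104414329. Serpina6 (ENSMUSG00000060807) lies before the antitrypsin copies, on the minus strand, at chr12:103646630-103657212. The RefSeq promoter table (GRCm38.p6, 250 bases before to 50 bases after the start) held 6 of the 10 members, the antitrypsin copies and Serpina3n. A matching stretch of 116 bases in the 5 antitrypsin promoters is near-identical (94.0% to 98.3% between pairs) while the genes' responses were not. It is shown for each copy, 5′ to 3′ on the minus strand, with the letters GTTAAT, a word common to all 5, in capitals. The rest of the promoters was not aligned.

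Serpina1a: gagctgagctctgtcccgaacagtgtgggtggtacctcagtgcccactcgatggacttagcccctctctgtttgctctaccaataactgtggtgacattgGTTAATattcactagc
Serpina1b: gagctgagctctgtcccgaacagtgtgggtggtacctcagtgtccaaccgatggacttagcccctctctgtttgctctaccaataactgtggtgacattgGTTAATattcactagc
Serpina1c: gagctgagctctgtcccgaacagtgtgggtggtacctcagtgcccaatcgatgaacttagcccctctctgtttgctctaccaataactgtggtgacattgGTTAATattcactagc
Serpina1d: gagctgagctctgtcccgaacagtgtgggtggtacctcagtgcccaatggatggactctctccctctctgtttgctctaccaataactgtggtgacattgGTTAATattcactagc
Serpina1e: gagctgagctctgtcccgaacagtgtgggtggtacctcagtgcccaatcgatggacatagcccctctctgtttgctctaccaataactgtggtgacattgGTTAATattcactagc

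These stretches lie at chr12:103863625-103863740, chr12:103738200-103738315, chr12:103904962-103905077, chr12:103773634-103773749 and chr12:103956960-103957075, in the order shown. None overlaps an annotated exon. Those of Serpina1b and Serpina1e fall in an intron of their own gene model, and the others lie outside the gene model they belong to. Counting from the 5′ end of the stretch, with the Serpina1e base first, Serpina1e differed from Serpina1a by A47C and A57T, from Serpina1b by C43T, T48C and A57T, and from Serpina1c by G54A and A57T. From Serpina1d it differed by C49G, A57T, T58C, A59T, G60C and C61T. A57T was the substitution that separated Serpina1e from all the other copies. Searched on both strands of the whole promoters, GTTAAT was present in all 5 antitrypsin promoters and not in that of Serpina3n, against 7.1% of the 32851 promoters of the same length in the table. The C/EBP motif TTGCNNAA was found in the promoters of Serpina1a, Serpina1b, Serpina1d and Serpina1e and in 10.8% of all promoters. Its offsets from the annotated starts were 24 in Serpina1a, -161 in Serpina1b, -149 in Serpina1d and -211 in Serpina1e. Those of GTTAAT were -21, -26, -16 and -78 in the same order. The spacing between the C/EBP motif and GTTAAT was thus similar in Serpina1b, Serpina1d and Serpina1e, and only Serpina1a differed in this. In Serpina1a the C/EBP motif lay after the start, and Serpina1c had none. The STAT5 palindrome TTCNNNGAA was in none of the 6, and in 8.3% of all promoters. These matches are letters only and show no binding.

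Near-identical copies share reads, which limits how far the antitrypsin genes can be told apart. Of all 100-base stretches of the exons, 42.8% of those of Serpina1a, 14.8% of Serpina1b, 69.3% of Serpina1c, 29.3% of Serpina1d and 14.4% of Serpina1e also occurred in another gene, and 58.0% of those of Serpina1c occurred in Serpina1a. The share was 4.9% for Serpina3k, 6.1% for Serpina3m, 0.2% for Serpina3n and 0 for Serpina6 and Serpina4-ps1. These shares depend on the length used. With 50-base stretches Serpina1a to Serpina1e had 57.6%, 29.5%, 79.3%, 50.9% and 34.6%, in that order. At 150 bases they had 35.1%, 11.9%, 59.7%, 23.3% and 7.4%. How reads with several matches were counted is not given in the sources used here, so levels of Serpina1a and Serpina1c are uncertain in particular. An antisense gene, B430119L08Rik, covers 31.5% of the exon bases of Serpina1c, and its reads cannot be told apart from those of Serpina1c if strand was not used. Serpina3k and Serpina3m share 60 exon bases.

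Library depth, recovered from the steps of the TPM values, was 18.1 to 35.8 M reads (M, 1000000), and the lowest value of any member, 0.723 TPM for Serpina4-ps1 in a W/F vehicle mouse, still stood for 8 reads. All 9 hepatocyte markers measured of a list of 10 were above 1 TPM in every group, and their summed level was 105802 to 132642 TPM in W/W vehicle, 84482 to 93492 TPM in W/F vehicle and 60335 to 68838 TPM in F/F vehicle mice. The composition of the libraries moved with the groups. Between W/F and W/W vehicle mice the median log2 fold change of all 16638 genes was 0.52, and with T0901317 in W/F mice it was -0.49, while TPM add up to the same total in every library. Results are therefore also given after rescaling each library by its median ratio to the mean library (factors 0.693 to 1.48) wherever this changed a call. Summed macrophage markers (8 genes) reached 3058 to 4126 TPM in W/F vehicle and 3702 to 4735 TPM in F/F vehicle mice, against 193 to 362 TPM in W/W vehicle mice. With T0901317 they were 248 to 463 TPM in W/W, 169.6 to 1167 TPM in W/F and 1406 to 2255 TPM in F/F mice, and on chow 141 to 209, 86.8 to 168 and 553 to 846 TPM. The part of these shifts in the levels of the serpins was not tested.

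The 10 genes together made up 4.40% of all liver TPM on chow in W/W mice, 4.81% in W/F and 3.00% in F/F mice. On the MASH diet with vehicle the share was 2.82%, 1.00% and 0.853% in the same order of genotypes. With T0901317 it was 1.48%, 2.56% and 1.12%. By mean level, corrected for length, Serpina3k ranked 20 and Serpina1e 21 among all genes, followed by Serpina1c at 36, Serpina1b at 38, Serpina1d at 53 and Serpina1a at 79, while Serpina3n ranked 213, Serpina6 560, Serpina3m 600 and Serpina4-ps1 936. The genes differed in how far they ranged. The widest ranges were those of the genes selected on large falls with T0901317 in W/W mice, so this order partly follows from that choice. The highest library exceeded the lowest 458-fold for Serpina1e and 729-fold for Serpina4-ps1, 19.8-fold for Serpina3k and 7.32-fold for Serpina1d. For the other 6 members this range was 2.05-fold (Serpina1b) to 6.57-fold (Serpina3n).

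**Figure D1:**
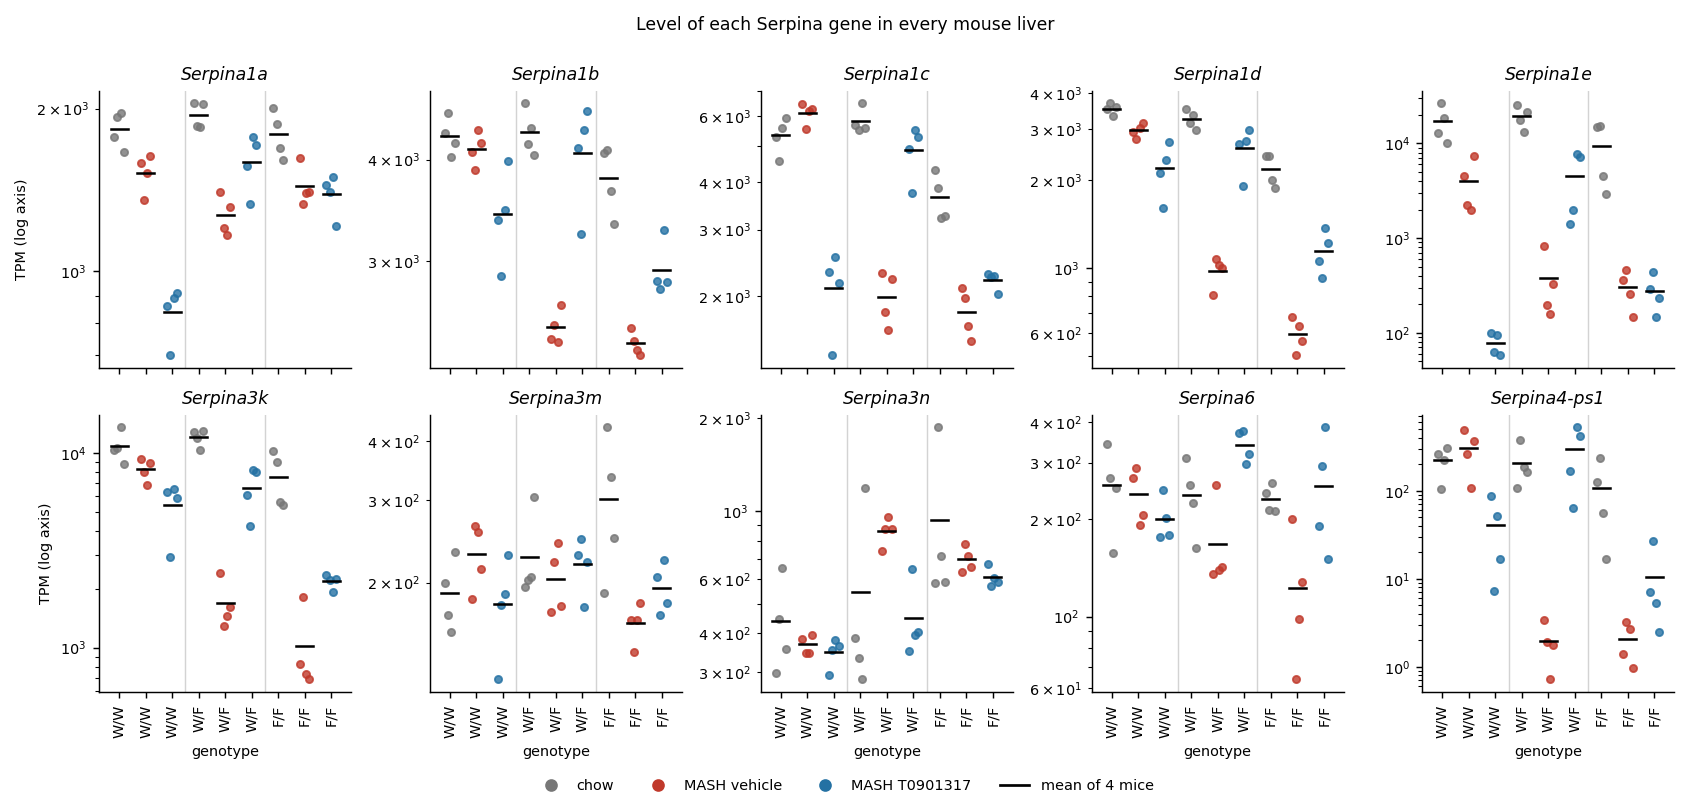
Each panel shows 1 gene, with TPM on a log axis against genotype and treatment; a point is 1 mouse, its colour the treatment, and the bar the mean of 4 mice. Serpina1e and Serpina4-ps1 span 458-fold and 729-fold, and in W/W mice their lowest points are with T0901317 whereas in W/F mice they are with vehicle. Both genes were selected on their falls with T0901317 in W/W mice.

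All 5 antitrypsin copies rose with T0901317 in W/F livers, while in W/W livers, where no test is given, the mean of each was lower with T0901317. In W/W mice all 10 members had a lower mean with T0901317 than with vehicle, and for 6 of the 10 (Serpina1a, Serpina1c, Serpina1d, Serpina1e, Serpina3k and Serpina4-ps1) the 4 treated and the 4 vehicle mice did not overlap. This comparison chose members, so nothing is read from that count, and the share of all genes without overlap is not given here. By limma, which is another measure, 7.87% of the 16638 genes tested were called higher and 2.91% lower (on log2(TPM + 1), Benjamini-Hochberg adjusted p under 0.05). In W/F mice 8 of 10 members rose with T0901317 and Serpina3n fell, where 6.59% of the 16638 genes tested were called higher and 59.3% lower. After rescaling 9 rose, Serpina3m among them, and Serpina3n was not called. In F/F mice 4 of 10 members rose (Serpina1b, Serpina1d, Serpina3k and Serpina6) and none fell, where 3.95% of the 16638 genes tested were called higher and 31.2% lower; after rescaling Serpina1c rose as well. The members' median log2 fold change was 1.17 in W/F and 0.30 in F/F mice, beside -0.49 and -0.24 for all genes. The comparisons with T0901317 and with diet use the same vehicle mice in each genotype, so their values are set side by side and not counted as separate support.

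Most members were lower on the MASH diet than on chow in W/F and F/F livers. In W/F mice 7 of 10 members fell between chow and the MASH diet with vehicle and Serpina3n rose, where 52.4% of the 16638 genes tested were called higher and 8.53% lower; after rescaling 9 fell and none rose. In F/F mice 9 of 10 fell, all but Serpina3n, where 46.5% of the 16638 genes tested were called higher and 9.27% lower. In W/W mice limma called 0 of the 8 members tested, where 2.59% of the 16638 genes tested were called higher and 10.3% lower. At an unadjusted p under 0.05, 1 of the 8, Serpina1a, was lower there (adjusted p = 0.0737). The members' median log2 fold change was -1.18 in W/F and -1.02 in F/F mice, beside 0.39 and 0.32 for all genes.

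**Figure D2:**
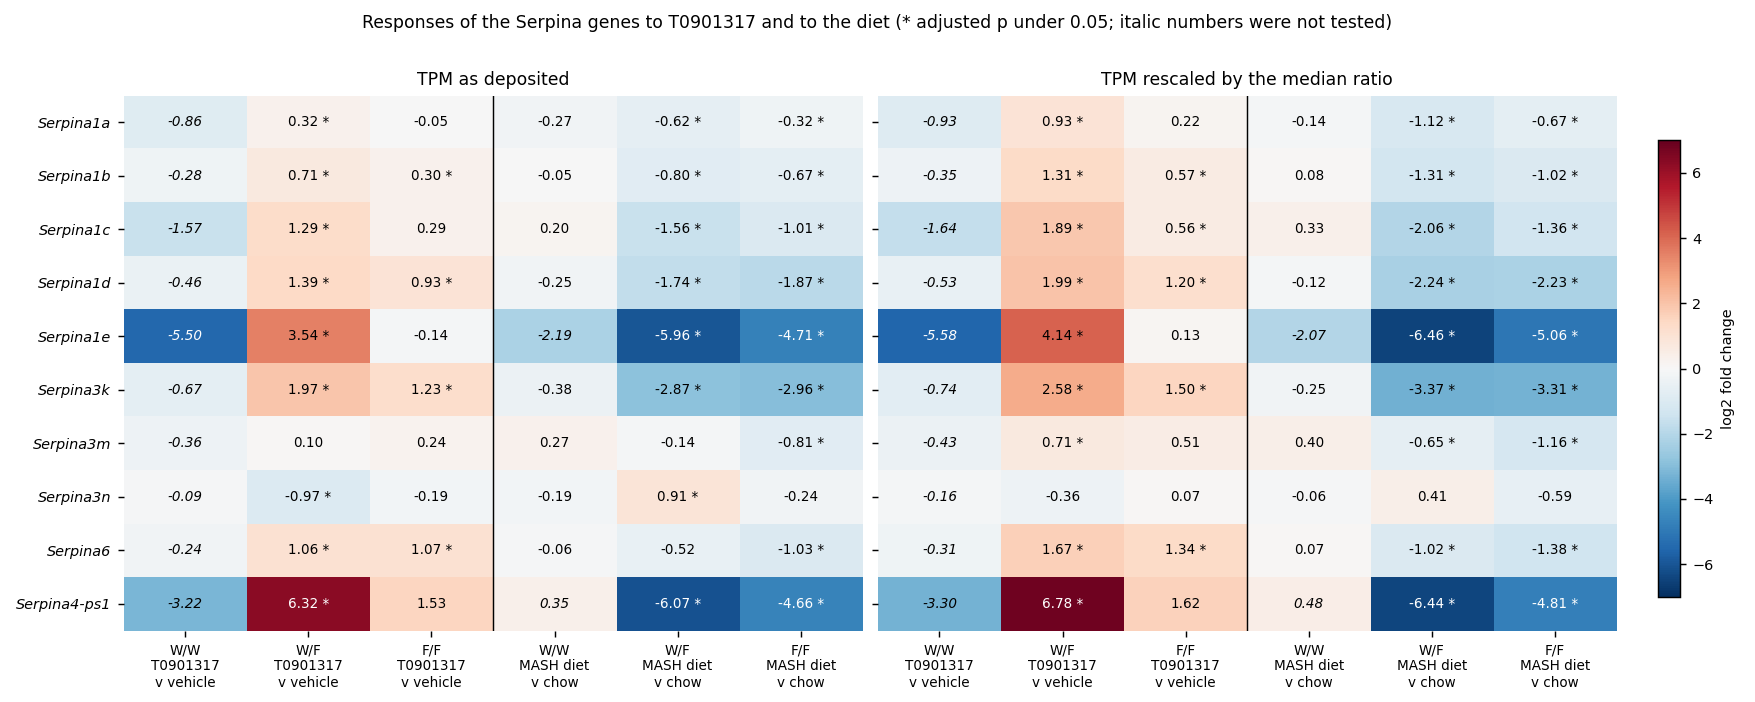
Log2 fold changes of the 10 genes (rows) for T0901317 against vehicle and for the MASH diet against chow in each genotype (columns), from TPM as deposited (left) and after rescaling (right); a star marks an adjusted p under 0.05 and italic values were not tested. The T0901317 column of W/F mice runs from near white to red for all genes but Serpina3n, with Serpina3m as deposited near white and not called. Both diet columns of W/F and F/F mice run from near white to blue for the antitrypsin copies and are blue for Serpina3k.

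Serpina1e, selected on its fall with T0901317 in W/W mice, was the antitrypsin copy with the widest range, which partly follows from that choice. In W/W mice it stood at 12969, 26588, 18701 and 10069.8 TPM on chow, 4530.3, 2221, 1983 and 7408 TPM on the MASH diet with vehicle and 98.5, 61.9, 93.7 and 58.0 TPM with T0901317. The 3 treatments did not overlap in this genotype, and the T0901317 mice were the lowest of all 36. W/F values were 25499.7, 17668, 13260.4 and 21376 TPM on chow, 822, 195, 158 and 331 TPM on the MASH diet with vehicle and 1424, 1975, 7655 and 7138 TPM with T0901317. Here the vehicle mice were lowest, and every T0901317 mouse lay above every vehicle mouse. F/F values were 14988, 15358, 4481 and 2942 TPM on chow, 365, 459, 259 and 147 TPM on the MASH diet with vehicle and 293, 438, 145 and 234 TPM with T0901317. Vehicle and T0901317 mice overlapped in F/F, and 2 of the 4 F/F chow mice lay below all other chow mice.

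Measured as log2 fold changes, Serpina1e rose by 3.54 (SE 0.57, adjusted p = 3.82e-06) with T0901317 in W/F mice, an 11.6-fold difference, and was not called in F/F mice, at -0.14 (SE 0.57, adjusted p = 0.871). Between chow and the MASH diet it fell by 5.96 (SE 0.57, adjusted p = 3.06e-10) in W/F and fell by 4.71 (SE 0.57, adjusted p = 6.22e-08) in F/F mice. The untested values in W/W mice were -5.50 (SE 0.57) with T0901317, a level 45.4-fold lower, and -2.19 (SE 0.57) with the diet. The T0901317 response was lower in F/F than in W/F mice by 3.67 (SE 0.81, adjusted p = 0.00259). After T0901317, F/F mice had less Serpina1e than W/F mice, by 3.77 (SE 0.57, adjusted p = 2.77e-06). On chow the F/F mice were not called against W/F, at -1.35 (SE 0.57, adjusted p = 0.0585), although rescaling gave -1.70 and a call (adjusted p = 0.0263), as did leaving out F/F chow library 1 (-1.69, adjusted p = 0.0279) or 2 (-1.70, adjusted p = 0.0235). Leaving out another library made this difference as small as -0.90 (adjusted p up to 0.25). Against W/W chow mice the F/F value was -1.10 (SE 0.57, adjusted p = 0.113), and -1.45 with an adjusted p of 0.0459 without F/F chow library 2. It was as small as -0.66 with another library left out (adjusted p up to 0.397).

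The other antitrypsin copies differed less between groups. Serpina1c, the copy with the most shared sequence, stood in W/W mice at 5285, 4564, 5587 and 5925 TPM on chow, 6438, 5554, 6203 and 6278 TPM on the MASH diet with vehicle and 2317, 1395, 2542 and 2165 TPM with T0901317. Chow and vehicle values overlapped and all T0901317 values were lower. W/F mice had 5667, 5516, 6484 and 5563 TPM on chow, 2299, 1813, 1621 and 2226 TPM on the MASH diet with vehicle and 4897, 3744, 5516 and 5287 TPM with T0901317. Their vehicle values alone were low, and T0901317 values all lay above them. F/F mice had 4302, 3858, 3226 and 3264 TPM on chow, 2099, 1973, 1670.1 and 1522 TPM on the MASH diet with vehicle and 2294, 2252, 2257 and 2026 TPM with T0901317. Chow values of F/F mice were above their vehicle and T0901317 values, with 1 vehicle mouse inside the range of the T0901317 mice.

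Serpina1c rose by 1.29 (SE 0.15, adjusted p = 1.61e-08) with T0901317 in W/F mice, fell by 1.56 (SE 0.15, adjusted p = 2.65e-10) with the diet in W/F and fell by 1.01 (SE 0.15, adjusted p = 1.25e-06) with the diet in F/F mice. Serpina1d, whose gene lies inside the span of the Serpina1b model, rose with T0901317 in F/F mice as well. Its W/W values were 3504, 3681, 3336 and 3580.0 TPM on chow, 2942, 2766, 3026 and 3146 TPM on the MASH diet with vehicle and 2128, 1614, 2359 and 2699 TPM with T0901317. Its W/F values were 3528, 3147, 3360.3 and 2981 TPM on chow, 811, 1073, 1023 and 1002 TPM on the MASH diet with vehicle and 2671, 1912, 2735 and 2990.3 TPM with T0901317. Its F/F values were 2422, 2423, 2004 and 1890.0 TPM on chow, 682, 503, 635 and 561 TPM on the MASH diet with vehicle and 1055, 923, 1371 and 1216 TPM with T0901317. In W/F and in F/F mice the vehicle values of Serpina1d lay below all chow and all T0901317 values. With T0901317 it rose by 1.39 (SE 0.14, adjusted p = 1.69e-09) in W/F and rose by 0.93 (SE 0.14, adjusted p = 1.9e-05) in F/F mice, and with the diet it fell by 1.74 (SE 0.14, adjusted p = 9.76e-12) in W/F and fell by 1.87 (SE 0.14, adjusted p = 1.01e-11) in F/F mice.

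Serpina1a and Serpina1b ranged least. Serpina1a lay at 1663 to 1962 TPM on chow, 1355 to 1631 TPM with vehicle and 699 to 912 TPM with T0901317 in W/W mice. The corresponding ranges were 1848 to 2047 TPM, 1166 to 1403 TPM and 1331 to 1775 TPM in W/F mice and 1603 to 2004 TPM, 1329 to 1620.5 TPM and 1210.0 to 1496 TPM in F/F mice. All 4 W/W mice with T0901317 were below every other mouse in Serpina1a. It rose by 0.32 (SE 0.099, adjusted p = 0.00511) with T0901317 in W/F mice, where the groups overlapped, fell by 0.62 (SE 0.099, adjusted p = 3.32e-06) with the diet in W/F and fell by 0.32 (SE 0.099, adjusted p = 0.00731) with the diet in F/F mice. Serpina1b lay at 4030.0 to 4565 TPM, 3883 to 4348 TPM and 2870.3 to 3986 TPM on chow, vehicle and T0901317 in W/W mice. It lay at 4054 to 4696 TPM, 2382 to 2644 TPM and 3235 to 4592 TPM in W/F and at 3332 to 4117 TPM, 2294 to 2480.0 TPM and 2766 to 3277 TPM in F/F mice. Vehicle values of Serpina1b were the lowest in both mutant genotypes. It rose by 0.71 (SE 0.096, adjusted p = 2.53e-07) with T0901317 in W/F and rose by 0.30 (SE 0.096, adjusted p = 0.017) in F/F mice, where the call ended without F/F T0901317 library 3 (0.24, adjusted p = 0.0841). With the diet it fell by 0.80 (SE 0.096, adjusted p = 2.21e-08) in W/F and fell by 0.67 (SE 0.096, adjusted p = 8e-07) in F/F mice.

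Added up, which is less touched by reads split among copies, Serpina1a to Serpina1e had mean sums of 32054 TPM on chow, 18773 TPM with vehicle and 8647 TPM with T0901317 in W/W mice. The sums were 34788, 7095 and 17660.5 TPM in W/F and 20878, 6528 and 7938 TPM in F/F mice. How reads with several matches were counted is not given. If they were dropped, copies with much shared sequence would be lowered most, in the sum and in the shares. At 100 bases 69.3% of the stretches of Serpina1c were shared and 14.4% of those of Serpina1e. With that limit, the make-up differed between groups. The share of Serpina1e in W/W mice was 51.5% ± 10.8 (SD, n = 4) on chow, 20.4% ± 9.59 with vehicle and 0.912% ± 0.228 with T0901317. For W/F it was 55.2% ± 7.25, 5.10% ± 3.78 and 23.4% ± 12.3. For F/F it was 40.5% ± 16.8, 4.63% ± 1.85 and 3.54% ± 1.63. Where Serpina1e was low, Serpina1b held the largest mean share in the plot of the make-up, with 39.8% in W/W T0901317 mice and 36.5% in F/F vehicle mice. No test is given for the sum, since it scores the members themselves.

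**Figure D3:**
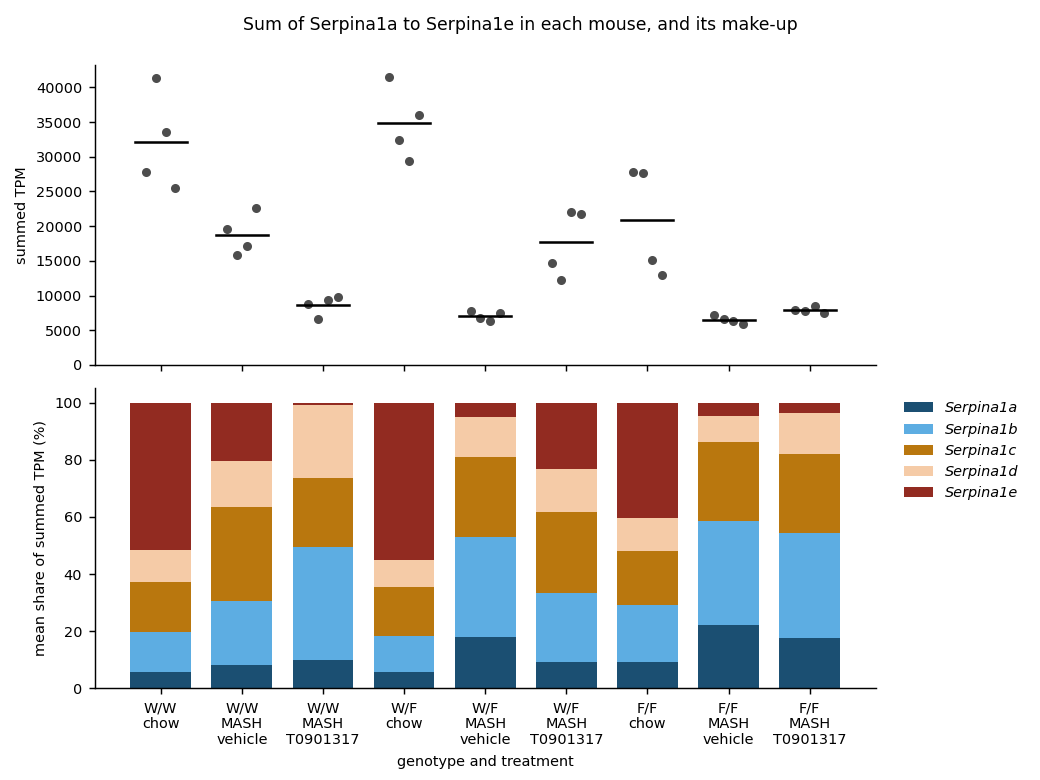
The upper panel gives the summed TPM of Serpina1a to Serpina1e in each mouse (points) with the mean of 4 mice (bar), and the lower panel the mean share of each copy in that sum in percent, for the 9 groups. Serpina1e, selected on its fall with T0901317 in W/W mice, makes up 51.5% of the sum in W/W chow mice and 0.912% in W/W T0901317 mice. Sequence shared by the copies makes these shares uncertain.

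The pseudogene Serpina4-ps1, transcribed from the strand opposite to the antitrypsin copies, was the member with the deepest lows. W/W mice had 261, 105, 227 and 309 TPM on chow, 497, 259, 108 and 366 TPM on the MASH diet with vehicle and 87.0, 7.31, 51.7 and 16.9 TPM with T0901317. The T0901317 values in W/W were all under the lowest vehicle value. W/F mice had 109, 375, 185 and 162 TPM on chow, 3.38, 1.92, 0.723 and 1.75 TPM on the MASH diet with vehicle and 168, 63.6, 527 and 422 TPM with T0901317. With vehicle, W/F mice had at most 3.38 TPM while each of the other W/F groups had at least 63.6 TPM. F/F mice had 126, 235, 55.3 and 16.9 TPM on chow, 1.41, 3.22, 2.66 and 0.965 TPM on the MASH diet with vehicle and 7.03, 27.2, 5.37 and 2.504 TPM with T0901317. In F/F mice T0901317 and vehicle values overlapped, and chow values lay above the vehicle values. Near 1 TPM the added pseudocount makes a log2 fold change smaller than the ratio of levels. Serpina4-ps1 rose by 6.32 (SE 0.74, adjusted p = 1.95e-08) with T0901317 in W/F mice, and by 6.91 without W/F T0901317 library 2. It was not called in F/F mice, at 1.53 (SE 0.74, adjusted p = 0.103). With the diet it fell by 6.07 (SE 0.74, adjusted p = 2.82e-08) in W/F and fell by 4.66 (SE 0.74, adjusted p = 3.8e-06) in F/F mice, with -5.35 in F/F without F/F chow library 4. The untested W/W values were -3.22 (SE 0.74) with T0901317 (-2.62 without W/W T0901317 library 2) and 0.35 (SE 0.74) with the diet. The T0901317 response was smaller in F/F than in W/F mice by 4.79 (SE 1.04, adjusted p = 0.00229).

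Serpina3k, an abundant plasma serpin that binds tissue kallikrein, was low in the vehicle mice of both mutant genotypes. W/W values were 10380.1, 10699, 13613 and 8798 TPM on chow, 9338, 8016, 6885 and 8927 TPM on the MASH diet with vehicle and 6349, 2944, 6539 and 5862 TPM with T0901317. In W/W mice the T0901317 values were all below the vehicle values. W/F values were 12883, 12050.1, 10441 and 13006 TPM on chow, 2427, 1298, 1449 and 1612 TPM on the MASH diet with vehicle and 6139.5, 4248, 8249.9 and 8018 TPM with T0901317. F/F values were 10326, 9051, 5602 and 5415 TPM on chow, 826, 1834, 732 and 688 TPM on the MASH diet with vehicle and 2370.1, 2236, 1935 and 2257 TPM with T0901317. The vehicle mice were lowest in both mutant genotypes, and T0901317 mice of W/F and of F/F lay above them without overlap. With T0901317 Serpina3k rose by 1.97 (SE 0.27, adjusted p = 3.23e-07) in W/F and rose by 1.23 (SE 0.27, adjusted p = 0.00124) in F/F mice. With the diet it fell by 2.87 (SE 0.27, adjusted p = 2.27e-10) in W/F and fell by 2.96 (SE 0.27, adjusted p = 5e-10) in F/F mice. Across all 36 libraries the log2 levels of Serpina3k and Serpina1d had r = 0.944, and 0.213 once each group's mean was taken out, whereas Serpina3k and Serpina1e had 0.761 and 0.722. These correlations describe libraries that share groups, and no p is given for them.

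Serpina3m, whose annotated model begins at the same base as that of Serpina3k, was called in a single T0901317 or diet comparison. Its values were 157 to 233 TPM on chow, 184 to 264 TPM with vehicle and 125 to 229 TPM with T0901317 in W/W mice. In W/F mice the ranges were 195 to 305 TPM, 173 to 243 TPM and 178 to 248 TPM, and in F/F mice 190.1 to 428 TPM, 142 to 181 TPM and 171 to 224 TPM. No 2 neighbours in the order of its 9 group means were free of overlap. It fell by 0.81 (SE 0.20, adjusted p = 0.000843) with the diet in F/F mice. After rescaling it also rose with T0901317 in W/F mice (0.71, adjusted p = 0.0049) and fell with the diet there (-0.65, adjusted p = 0.00896).

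The acute-phase gene Serpina3n had the opposite sign to the other called members in W/F mice before rescaling. W/W mice had 297, 447, 652 and 357 TPM on chow, 385, 347, 346 and 396 TPM on the MASH diet with vehicle and 293, 354, 381 and 364 TPM with T0901317. W/F mice had 386, 333, 284 and 1183 TPM on chow, 741, 871, 958 and 873 TPM on the MASH diet with vehicle and 350.4, 646, 396 and 405 TPM with T0901317. F/F mice had 582, 1866, 713 and 586 TPM on chow, 635, 783, 716 and 656 TPM on the MASH diet with vehicle and 673, 570.3, 604 and 588 TPM with T0901317. The 4 W/F vehicle mice lay above all W/F T0901317 mice, and single chow mice stood far above the rest in W/F (1183 TPM) and F/F (1866 TPM). Serpina3n fell by 0.97 (SE 0.32, adjusted p = 0.00797) with T0901317 in W/F mice, yet after rescaling the value was -0.36 (adjusted p = 0.376). With the diet in W/F mice it rose by 0.91 (SE 0.32, adjusted p = 0.0138), and the call ended after rescaling (0.41, adjusted p = 0.31), in a fit of those groups alone (adjusted p = 0.0869) and without W/F chow library 2 (0.76, adjusted p = 0.0559) or 3 (0.68, adjusted p = 0.0753). The genes with the most similar pattern over the 36 libraries, among 11204 genes compared, were Steap4 (r = 0.926), Lrg1 (0.884), Hpx (0.877), Fgl1 (0.869) and Hp (0.867).

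Serpina6, the glucocorticoid carrier, lay at 158 to 344 TPM on chow, 193 to 288 TPM with vehicle and 176 to 247 TPM with T0901317 in W/W mice. The ranges were 163 to 309 TPM, 136 to 255 TPM and 297 to 375 TPM in W/F mice. They were 212 to 259.7 TPM, 63.9 to 201 TPM and 150.5 to 386 TPM in F/F mice. T0901317 values of W/F mice lay above all their vehicle values, while in F/F mice they overlapped. Serpina6 rose by 1.06 (SE 0.28, adjusted p = 0.00147) with T0901317 in W/F and rose by 1.07 (SE 0.28, adjusted p = 0.00464) in F/F mice, where a fit of those 2 groups alone gave an adjusted p of 0.0632. With the diet it fell by 1.03 (SE 0.28, adjusted p = 0.00255) in F/F mice, and in W/F mice only after rescaling (-1.02, adjusted p = 0.00405).

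Between genotypes, W/F and W/W livers differed on the MASH diet but not detectably on chow. On chow limma called 0 of 10 members between W/F and W/W, and 0 at an unadjusted p under 0.05, where 0.198% of the 16638 genes tested were called higher and 0.288% lower; all 10 members overlapped. With vehicle 5 of 8 members tested were lower in W/F and Serpina3n was higher, where 61.6% of the 16638 genes tested were called higher and 6.83% lower; after rescaling 7 were lower and none higher. In W/F vehicle mice the log2 difference was -0.73 for Serpina1b (adjusted p = 9.53e-08), -1.63 for Serpina1c (adjusted p = 1.1e-10), -1.61 for Serpina1d (adjusted p = 4.87e-11) and -2.32 for Serpina3k (adjusted p = 1.34e-08), each without overlap. Serpina1a, at -0.26 (adjusted p = 0.0206), was no longer called with any of these libraries left out in turn: W/F MASH vehicle 2 and 3, or W/W MASH vehicle 1 and 4 (adjusted p up to 0.0706). Serpina3n was 1.22 higher (adjusted p = 0.00112), or 0.55 after rescaling (adjusted p = 0.165). With T0901317 the direction was the opposite: 2 of 8 members, Serpina1a at 0.92 (SE 0.099, adjusted p = 4.62e-08) and Serpina1c at 1.23 (SE 0.15, adjusted p = 4.56e-07), were higher in W/F than in W/W mice and none was lower, where 3.65% of the 16638 genes tested were called higher and 6.23% lower. The values without a test were -3.52 (SE 0.57) for Serpina1e and -6.59 (SE 0.74) for Serpina4-ps1 with vehicle, and 5.52 (SE 0.57) and 2.95 (SE 0.74) with T0901317.

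F/F livers were lower than W/W livers in Serpina1c and Serpina1d already on chow, at -0.55 (SE 0.15, adjusted p = 0.00353) and -0.70 (SE 0.14, adjusted p = 0.00021). Of the 10 members, 2 were lower and 2 higher in F/F chow mice, where 43% of the 16638 genes tested were called higher and 3.65% lower; after rescaling 5 were lower and none higher. The higher ones were Serpina3m at 0.61 (SE 0.20, adjusted p = 0.012), not called without F/F chow library 2 (0.42, adjusted p = 0.0718), and Serpina3n at 0.97 (SE 0.32, adjusted p = 0.0133), not called without library F/F chow 2, or W/W chow 1 (adjusted p up to 0.0979). After rescaling they were 0.22 (adjusted p = 0.454) and 0.58 (adjusted p = 0.197). With vehicle 6 of 8 members were lower in F/F than in W/W mice and Serpina3n was higher, where 69.3% of the 16638 genes tested were called higher and 7.13% lower; after rescaling 7 were lower and none higher. The largest of these differences were -3.14 (SE 0.27, adjusted p = 1.41e-11) for Serpina3k and -2.32 (SE 0.14, adjusted p = 8.94e-15) for Serpina1d. Serpina1b differed by -0.80 (SE 0.096, adjusted p = 1.04e-08), Serpina1c by -1.76 (SE 0.15, adjusted p = 8.07e-12) and Serpina6 by -1.06 (SE 0.28, adjusted p = 0.00116). Serpina3m, at -0.47 (SE 0.20, adjusted p = 0.0299), was not called with any of these libraries left out in turn: F/F MASH vehicle 2, or W/W MASH vehicle 2 and 3 (adjusted p up to 0.0884) or with no filter on low values (adjusted p = 0.0521). Serpina3n, at 0.92 (SE 0.32, adjusted p = 0.00985), was 0.05 after rescaling (adjusted p = 0.91).

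With T0901317, 3 of 8 members were lower and 2 higher in F/F than in W/W mice, where 56.3% of the 16638 genes tested were called higher and 6.96% lower; after rescaling 3 were lower and none higher. Serpina1d was lower, at -0.94 (SE 0.14, adjusted p = 1.54e-06) and Serpina3k at -1.24 (SE 0.27, adjusted p = 0.000248). Serpina1a was higher, at 0.72 (SE 0.099, adjusted p = 3.96e-07), or 0.20 after rescaling (adjusted p = 0.258). Serpina3n, at 0.81 (SE 0.32, adjusted p = 0.0265), was not called after rescaling (0.28, adjusted p = 0.517) or without library F/F MASH T0901317 1, or W/W MASH T0901317 1 (adjusted p up to 0.0699). Serpina1b, at -0.22 (SE 0.096, adjusted p = 0.0459), was not called with any of these libraries left out in turn: F/F MASH T0901317 1, 2 and 4, or W/W MASH T0901317 1, 3 and 4 (adjusted p up to 0.212). The values without a test were -3.62 (SE 0.57) for Serpina1e and -6.52 (SE 0.74) for Serpina4-ps1 with vehicle and 1.75 (SE 0.57) and -1.77 (SE 0.74) with T0901317.

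F/F and W/F livers, which both carry the mutant residue, differed in 4 members on chow, 2 with vehicle and 6 with T0901317. On chow 3 of 10 members were lower in F/F and Serpina3n was higher, where 37.9% of the 16638 genes tested were called higher and 3.43% lower; after rescaling 6 were lower and none higher. These were Serpina1c at -0.67 (SE 0.15, adjusted p = 0.000637), Serpina1d at -0.58 (SE 0.14, adjusted p = 0.00151) and Serpina3k at -0.72 (SE 0.27, adjusted p = 0.0329), the last not called with any of these libraries left out in turn: F/F chow 3 and 4, or W/F chow 1, 2 and 4 (adjusted p up to 0.127). Serpina3n, at 0.85 (SE 0.32, adjusted p = 0.0319), was not called with any of these libraries left out in turn: F/F chow 2, or W/F chow 1, 2 and 3 (adjusted p up to 0.205) or after rescaling (0.49, adjusted p = 0.277). With vehicle 2 of 10 were lower and none higher, where 19% of the 16638 genes tested were called higher and 2.3% lower: Serpina1d at -0.72 (SE 0.14, adjusted p = 0.000566) and Serpina3k at -0.82 (SE 0.27, adjusted p = 0.0306), the latter not called with any of these libraries left out in turn: F/F MASH vehicle 1, 3 and 4, or W/F MASH vehicle 1 and 4 (adjusted p up to 0.118). With T0901317, 6 of 10 were lower in F/F and none higher, where 58.5% of the 16638 genes tested were called higher and 4.08% lower; after rescaling 9 were lower. Besides Serpina1e these were Serpina1b at -0.47 (SE 0.096, adjusted p = 0.000122), Serpina1c at -1.12 (SE 0.15, adjusted p = 3.59e-07), Serpina1d at -1.17 (SE 0.14, adjusted p = 8.72e-08), Serpina3k at -1.55 (SE 0.27, adjusted p = 1.86e-05) and Serpina4-ps1 at -4.72 (SE 0.74, adjusted p = 4e-06), which was -5.32 without W/F T0901317 library 2. For Serpina4-ps1 on chow the difference of -1.34 (SE 0.74, adjusted p = 0.144) became a call without F/F chow library 2 (-1.90, adjusted p = 0.0428), as did that against W/W chow mice (-2.06, adjusted p = 0.0255). Leaving out another library made them as small as -0.66 against W/F (adjusted p up to 0.525) and -0.82 against W/W chow mice (adjusted p up to 0.398).

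**Figure D4:**
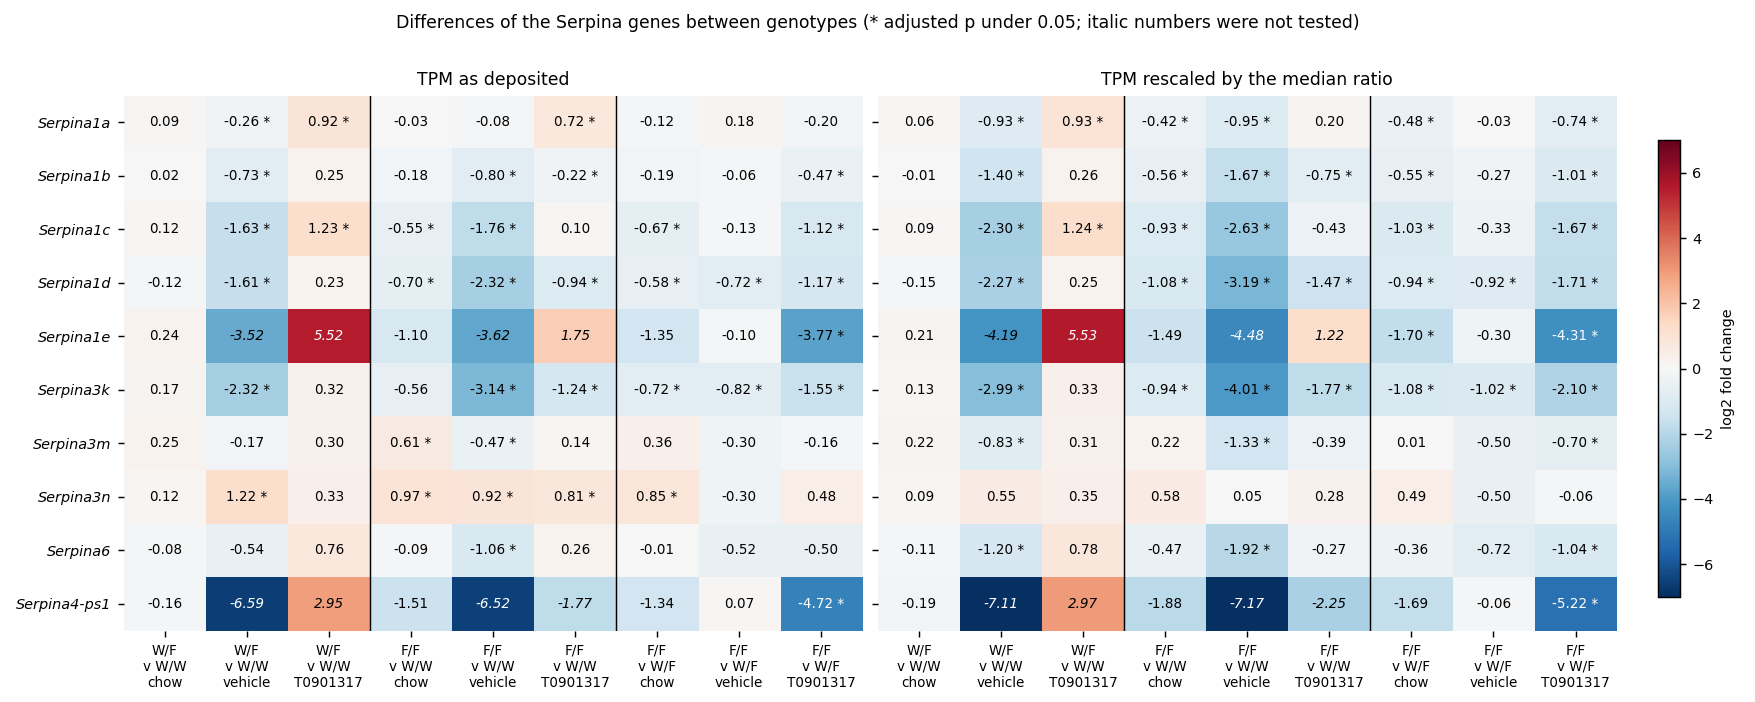
Log2 differences of the 10 genes (rows) between genotypes within each treatment (columns), from TPM as deposited (left) and after rescaling (right); a star marks an adjusted p under 0.05 and italic values were not tested. The W/F against W/W columns are near white on chow, mostly blue with vehicle and partly red with T0901317 for the antitrypsin copies.

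The response to T0901317 itself differed between genotypes. These differences include the W/W mice on which Serpina1e and Serpina4-ps1 were chosen, so those genes were left out of the tests against W/W. In the response of W/F minus that of W/W mice, 6 of 8 members were higher and none lower, where 5.27% of the 16638 genes tested were called higher and 53.2% lower. The differences were 2.86 (SE 0.21, adjusted p = 2.16e-11) for Serpina1c, 2.64 (SE 0.38, adjusted p = 1.47e-06) for Serpina3k, 1.84 (SE 0.20, adjusted p = 1.23e-08) for Serpina1d, 1.30 (SE 0.40, adjusted p = 0.00588) for Serpina6, 1.18 (SE 0.14, adjusted p = 5.91e-08) for Serpina1a and 0.98 (SE 0.14, adjusted p = 6.3e-07) for Serpina1b. In the response of F/F minus that of W/W mice the same 6 genes were higher and none lower, where 3.29% of the 16638 genes tested were called higher and 27.2% lower. Serpina3k led with 1.90 (SE 0.38, adjusted p = 0.000587), then Serpina1c with 1.86 (SE 0.21, adjusted p = 2.38e-07) and Serpina1d with 1.39 (SE 0.20, adjusted p = 9.76e-06). In each of these comparisons 7 members were higher after rescaling. F/F minus W/F gave 4 of 10 lower and none higher, where 17.6% of the 16638 genes tested were called higher and 1.61% lower; after rescaling 6 were lower. Besides Serpina1e and Serpina4-ps1 these were Serpina1c at -0.996 (SE 0.21, adjusted p = 0.00171) and Serpina1b at -0.41 (SE 0.14, adjusted p = 0.0345), the last not called with any of these libraries left out in turn: F/F MASH T0901317 1, 2 and 4, or F/F MASH vehicle 1, or W/F MASH T0901317 1, 3 and 4, or W/F MASH vehicle 1, 2 and 3 (adjusted p up to 0.0788). For Serpina4-ps1 the difference was -5.38 without W/F T0901317 library 2.

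The response to the diet differed as well. For W/F minus W/W mice 5 of 8 members were lower and Serpina3n was higher, where 49.5% of the 16638 genes tested were called higher and 5.13% lower; after rescaling 7 were lower and none higher. The differences were -2.49 (SE 0.38, adjusted p = 4.29e-06) for Serpina3k, -1.76 (SE 0.21, adjusted p = 8.39e-08) for Serpina1c, -1.49 (SE 0.20, adjusted p = 4.47e-07) for Serpina1d and -0.75 (SE 0.14, adjusted p = 3.52e-05) for Serpina1b. Serpina1a, at -0.35 (SE 0.14, adjusted p = 0.0343), was not called with any of these libraries left out in turn: W/F chow 1 and 4, or W/F MASH vehicle 2 and 3, or W/W chow 1 and 4, or W/W MASH vehicle 1 and 4 (adjusted p up to 0.0772). Serpina3n, at 1.10 (SE 0.45, adjusted p = 0.0379), was not called after rescaling (0.47, adjusted p = 0.462) or with any of these libraries left out in turn: W/F chow 1, 2 and 3, or W/F MASH vehicle 2, 3 and 4, or W/W chow 2 and 3, or W/W MASH vehicle 2 and 3 (adjusted p up to 0.102). For F/F minus W/W mice 6 of 8 were lower and none higher, where 41.5% of the 16638 genes tested were called higher and 4.54% lower; after rescaling 7 were lower. They were Serpina3k at -2.58 (SE 0.38, adjusted p = 6.82e-06), Serpina1d at -1.63 (SE 0.20, adjusted p = 4.86e-07), Serpina1c at -1.21 (SE 0.21, adjusted p = 4.78e-05), Serpina3m at -1.08 (SE 0.28, adjusted p = 0.00236), Serpina1b at -0.62 (SE 0.14, adjusted p = 0.000558) and Serpina6 at -0.97 (SE 0.40, adjusted p = 0.046), the last not called with any of these libraries left out in turn: F/F chow 1, 2 and 3, or F/F MASH vehicle 2 and 3, or W/W chow 2, 3 and 4, or W/W MASH vehicle 1 and 2 (adjusted p up to 0.138).

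Other genes of the cluster are given here beside the members. The annotation holds 28 clade A genes over 799.5 kb of chromosome 12, of which 15 reached 5 TPM in at least 1 group, the 10 members among them. Between Serpina1e and Serpina4-ps1 lie 3 other clade A genes, Serpina11, Serpina9 and Serpina12. Serpina11 had mean levels of 65.5 TPM in W/W vehicle and 31.4 TPM in W/W T0901317 mice but 62.9 and 72.2 TPM in the same W/F groups. Serpina9, under 5 TPM in every group, had 1.21, 0.208, 0.0612 and 0.929 TPM in that order, and Serpina12 had 38.5, 14.4, 23.5 and 29.8 TPM. Serpina10, an inhibitor of activated coagulation factor X that lies next to Serpina6, had 84.98, 69.0, 176 and 105 TPM. Serpina3g, a serpin of blood cells, had 7.24, 9.91, 20.5 and 20.98 TPM. Of the 10 other clade A serpins tested, from a list of 16, 3 fell and none rose with T0901317 in W/W mice, Serpina9 by 0.88 (adjusted p = 0.0107) among them. In W/F mice 1 rose and 3 fell with T0901317 (2 and 1 after rescaling) and 5 rose and 1 fell with the diet (4 and 2 after rescaling). In F/F mice 4 fell with T0901317 (2 after rescaling), and 5 rose and 1 fell with the diet (3 and 2 after rescaling). Their median log2 fold change with the diet was 0.45 in W/F and 0.87 in F/F mice, where the medians of the 10 members were -1.18 and -1.02.

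**Figure D5:**
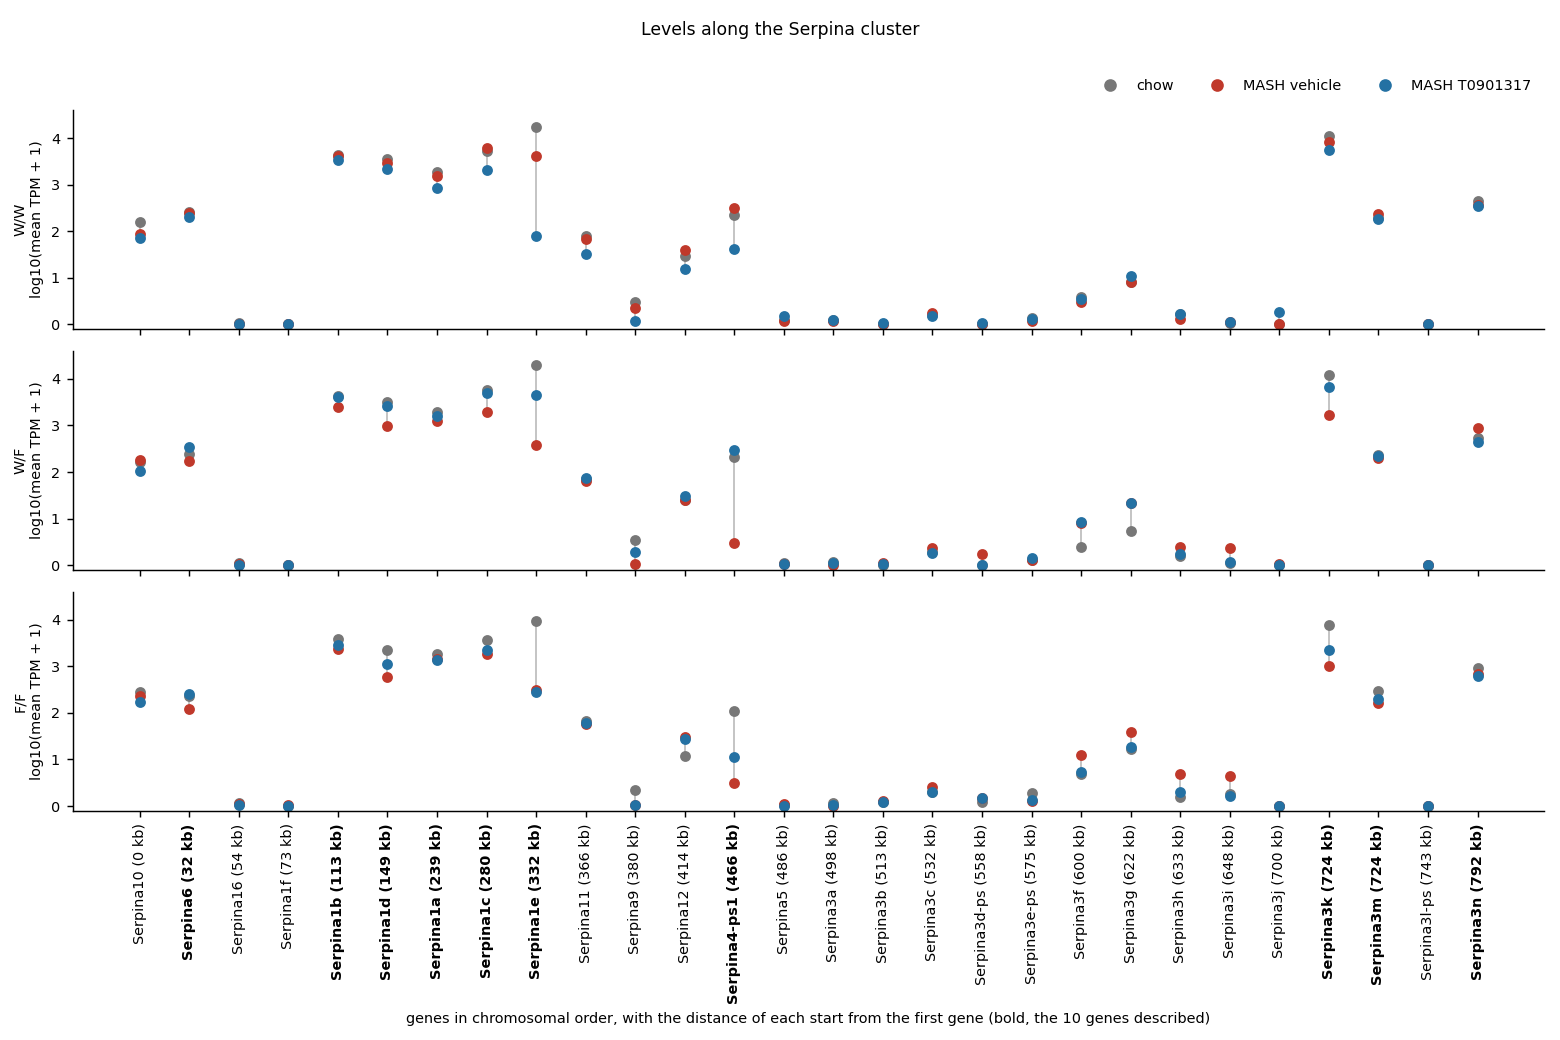
Mean levels of the clade A genes in chromosomal order, as log10(mean TPM + 1), 1 panel per genotype, with colours for treatment and the distance of each gene's start from the first gene in kb; the genes described are in bold. On this axis the widest gaps between treatments are at Serpina1e and Serpina4-ps1, and Serpina11 and Serpina12, between them, shift by far less. Serpina1e and Serpina4-ps1 were selected on large falls with T0901317 in W/W mice, so their gaps there follow from that choice. Serpina9, which also lies between Serpina1e and Serpina4-ps1, is near the floor, where the added 1 flattens changes. Its means were 2.47 TPM in W/F chow and 0.0612 TPM in W/F vehicle mice.

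Genes of related function, from lists chosen with earlier results of these data known, moved as follows. The counts are to be read beside the shares of all 16638 genes. With T0901317, 6.59% were called higher and 59.3% lower in W/F mice. With the diet, 52.4% were called higher and 8.53% lower in W/F mice, and 46.5% and 9.27% in F/F mice. Among 13 serpins of other clades tested, T0901317 in W/F mice went with a rise of 1 and a fall of 7 (6 and 5 after rescaling), Serpinh1 (a collagen chaperone) by -1.70 (adjusted p = 4.51e-07) among them, and with the diet 7 rose and 2 fell in W/F (6 and 4 after rescaling) and 7 rose and 4 fell in F/F mice. Serpinh1 rose by 2.24 (adjusted p = 2.69e-09) with the diet in W/F mice, and in F/F mice its mean rose from 39.4 to 104 TPM (adjusted p = 1.24e-05). Of 11 proteases tested, 1 rose with T0901317 in W/F mice, plasminogen (Plg) by 0.38 (adjusted p = 6.31e-04), and 3 fell (3 rose, with F2 and Klkb1 added, and 3 fell after rescaling), with the macrophage elastase Mmp12 at -4.78 (adjusted p = 9.51e-12) and urokinase Plau at -2.47 (adjusted p = 2.68e-08). With the diet 3 proteases rose and 4 fell in W/F mice, Mmp12 rising by 5.96 (adjusted p = 2.59e-14), and 5 rose and 3 fell in F/F mice (4 and 4 after rescaling). Mmp12, an enzyme that can cut alpha1-antitrypsin, stood at 0.121 TPM in W/F chow, 69.0 TPM in W/F vehicle and 2.49 TPM in W/F T0901317 mice.

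Of all 16638 genes, 59.3% were called lower with T0901317 in W/F mice and 2.91% in W/W mice. With the diet 52.4% were called higher in W/F and 46.5% in F/F mice. Of 16 acute-phase genes, 10 fell with T0901317 in W/F mice (5 fell and 1 rose after rescaling), with Lcn2, which binds bacterial iron carriers, at -5.81 (adjusted p = 1.84e-05) and the haem carrier Hpx at -1.87 (adjusted p = 8.32e-05). With the diet 8 rose in W/F mice (5 rose and 3 fell after rescaling), Lcn2 by 6.55 (adjusted p = 3.36e-06), and in F/F mice 2 rose and 2 fell (5 fell after rescaling). Growth hormone signalling (9 tested) had 3 genes lower with T0901317 in W/W mice, Igfals at -0.85 (adjusted p = 0.00142), Igf1 at -0.51 (adjusted p = 0.0037) and the receptor Ghr at -0.49 (adjusted p = 0.0211). After rescaling 4 were lower, with Stat5a added at -0.31 (adjusted p = 0.0411). In W/F mice 3 rose and 3 fell with T0901317 (3 and 2 after rescaling, where Stat5b was no longer called), with Igfals at 1.43 (adjusted p = 6.93e-08) and Ghr at 0.90 (adjusted p = 2.27e-06), and 4 rose and 4 fell with the diet (5 fell after rescaling), with Ghr at -1.51 (adjusted p = 1.83e-10). In F/F mice 2 rose and 2 fell with T0901317 (2 rose after rescaling), and 1 rose and 3 fell with the diet (4 fell after rescaling), with Ghr at -1.38 (adjusted p = 3.29e-09). Of 13 hepatocyte transcription factors 3 fell with T0901317 in W/F mice (7 rose and 1 fell after rescaling), and with the diet 2 rose and 1 fell in W/F (7 fell after rescaling), and 2 rose and 1 fell in F/F mice (1 rose and 6 fell after rescaling).

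Of 9 genes of glucocorticoid action, whose hormone Serpina6 carries, 1 rose and 6 fell with T0901317 in W/F mice (2 and 2 after rescaling), and with the diet 3 rose and 3 fell in W/F (2 and 5 after rescaling) and 2 rose and 3 fell in F/F mice (1 and 5 after rescaling). Hsd11b1, which regenerates active glucocorticoid, fell with the diet by 1.18 (adjusted p = 9.21e-06) in W/F and by 1.77 (adjusted p = 2.14e-08) in F/F mice. Of 10 genes of the secretory route of alpha1-antitrypsin 8 fell with T0901317 in W/F mice (3 rose and 1 fell after rescaling), and with the diet 4 rose and 2 fell in W/F (1 and 6 after rescaling) and 5 rose and 2 fell in F/F mice (2 and 2 after rescaling). Lman1, a cargo receptor for alpha1-antitrypsin between the endoplasmic reticulum and the Golgi, fell with the diet by 0.62 (adjusted p = 2.96e-05) in W/F and by 0.48 (adjusted p = 8.05e-04) in F/F mice. Of all 16638 genes, 59.3% were called lower with T0901317 in W/F mice. With the diet 52.4% were called higher in W/F and 46.5% in F/F mice.

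Markers of cell types moved beside the members. With the diet 52.4% of all 16638 genes were called higher and 8.53% lower in W/F mice, and 46.5% and 9.27% in F/F mice. With T0901317 these shares were 6.59% and 59.3% in W/F and 3.95% and 31.2% in F/F mice. With the diet 4 of 9 hepatocyte markers fell in W/F and 7 in F/F mice (7 and 8 after rescaling), and with T0901317 5 of 9 rose and 2 fell in W/F and 5 rose and 1 fell in F/F mice (5 and 7 rose, and none fell, after rescaling). Their median log2 fold change with the diet in F/F mice was -0.68, beside a median of -1.02 for the 10 members in the same mice. Some members fell by less than the markers' median, Serpina1a among them. Of 8 macrophage markers 7 rose with the diet in W/F mice, and 7 rose and 1 fell in F/F mice. Summed bile duct markers (6 genes) were 54.1 to 61.6 TPM in W/W, 1168 to 1597 TPM in W/F and 2922 to 3568 TPM in F/F vehicle mice, where all 6 rose with the diet in both mutant genotypes; Krt7 and Cldn4 were under 1 TPM in W/W vehicle mice. Stellate cell and fibroblast markers (8 genes) summed to 95.8 to 157 TPM in W/W, 644 to 877 TPM in W/F and 1082 to 1322 TPM in F/F vehicle mice, and 8 rose with the diet in W/F, while 6 rose and 1 fell in F/F mice. Neutrophil markers (7 genes, 6 tested) summed to 3.58 to 9.06 TPM in W/W, 74.0 to 139 TPM in W/F and 143 to 418 TPM in F/F vehicle mice, with 4 rising in W/F and 6 in F/F mice (5 after rescaling) with the diet; Ly6g and Mpo were under 1 TPM in W/F vehicle mice. T and B cell markers (7 genes, 5 tested) summed to 3.09 to 8.22 TPM in W/W, 3.85 to 7.77 TPM in W/F and 7.48 to 9.06 TPM in F/F vehicle mice, with 2 rising in W/F and 4 in F/F mice (3 after rescaling). Endothelial markers (6 genes) summed to 67.2 to 77.6 TPM in W/W, 46.1 to 64.8 TPM in W/F and 65.2 to 104 TPM in F/F vehicle mice, with 1 rising and 2 falling in W/F (1 and 4 after rescaling) and 1 rising and 3 falling in F/F mice. Whether these cells had a part in the levels of the serpins was not tested.

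Among 11204 genes, those with the pattern most like Serpina1e over the 36 libraries were the hepatocyte enzyme Aox3 (r = 0.939), the complement gene C8b (0.933), Selenbp2 (0.924), the growth hormone target Igf1 (0.908) and the transporter Slc22a7 (0.900). For Serpina4-ps1 they were Adh6-ps1 (r = 0.938), the transporter Slco1a1 (0.938), the major urinary protein gene Mup3 (0.922), Keg1 (0.922) and Mup21 (0.921). Within the members the closest pair was Serpina1b and Serpina1d (r = 0.961, or 0.857 within groups), and Serpina3n and Serpina1d had r = -0.513. In the order of its 9 group means, Serpina1e had neighbours that did not overlap at only 2 points, between W/W vehicle and W/F vehicle and between F/F T0901317 and W/W T0901317. For Serpina4-ps1, Serpina3m, Serpina3n and Serpina6 no neighbouring groups were free of overlap.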

How the data were processed

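PolyA RNA of 36 mouse livers was measured in 9 groups of 4 mice, grouped by the labels. Per the file headers, the authors gave TPM for all libraries in a single deposited table, whose columns each summed to 1000000. Per the submitters' processing notes, Trimmomatic 0.36, STAR 2.5.2b and featureCounts of Subread 1.5.2 were used with GRCm38 (mm10); the handling of reads with several matches is not given in the sources used here. TPM fix the total of a library, so a gain in some genes lowers the values of others.

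Depth was recovered from low TPM values (0.02 to 0.4) and GENCODE M21 exon lengths, for 48970 genes that matched and not for 345. In each library 93.7% to 95.6% of values under 20 reads lay within 0.1 of a whole number, and depth was 18.1 to 35.8 M reads (M, 1000000). With no molecular identifiers, this covers counting error only.

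A gene was kept if 4 or more libraries had 1 TPM or more, and log2(TPM + 1) of the 16638 genes kept was fitted with limma 3.58.1 (R 4.3.3, trended variance) with 1 mean per group and all 36 libraries sharing 1 estimate of spread. Tests were two-sided for 20 contrasts, with Benjamini-Hochberg adjustment over all genes of a contrast and a threshold of 0.05. A fold change on this scale understates that of low genes. Groups of 4 livers per labels were treated as replicates, and nothing in the labels says more about litters or cages. Each p-value sets a difference of group means against the spread between livers within groups, shared over the 9 groups. Litters and cages are not accounted for. Rescaling divided each library by its median ratio to the geometric mean over 14786 genes above 0 throughout. On simulated data for T0901317 against vehicle in F/F mice, with 200 of 16638 genes changed, the fit recovered 80 of 100 genes changed by a log2 of 1 and 99 of 100 changed by a log2 of 2, and called 5 unchanged genes. The unchanged genes had the same mean in every group there. The simulation therefore does not cover a shift of composition, such as the median log2 fold change of -0.24 over all genes in the real comparison.

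The members and gene lists were chosen with earlier results of these data known. All 10 members are named. From a list, at most 4 genes were named, those with the largest absolute change among the called with at least 5 TPM in the higher group, of which some are not reported here, and Serpina9, F2, Klkb1, Stat5a and Stat5b were named after their values were seen; similar genes were the 5 with the highest Pearson r. Serpina1e and Serpina4-ps1 were tested only where no W/W vehicle or W/W T0901317 mice enter, no member was tested for T0901317 in W/W mice, and a test planned for the sum of Serpina1a to Serpina1e is left out. Alternatives were rescaled TPM, a pseudocount of 0.1, a filter of 5 TPM, no filter, only the groups compared, a replicate block and leaving out each library. Sequences came from RefSeq tables and were searched with Python 3.11.15.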

Additional observations from a re-analysis of the deposited data

Results flagged for a closer look

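In each of the 90 sets of 4 mice (10 genes in 9 groups) the highest and the lowest mouse were checked for a gap to the nearest other mouse that exceeds Dixon's 95% limit, which chance passes in about 1 in 20 sets, and 8 sets held such a mouse. High mice were Serpina1b in F/F T0901317 library 3 (3277 TPM), Serpina1c in W/F chow library 3 (6484 TPM), Serpina3k in F/F vehicle library 2 (1834 TPM), Serpina3m (304.8 TPM) and Serpina3n (1183 TPM) in W/F chow library 4, Serpina3n in F/F chow library 2 (1866 TPM) and Serpina6 in W/F vehicle library 2 (255.1 TPM). A low mouse was F/F T0901317 library 4 for Serpina1c (2025.5 TPM).

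The difference of the T0901317 response between W/F and W/W mice passed limma's test for Serpina1a (1.18), Serpina1b (0.98), Serpina1c (2.86), Serpina1d (1.84), Serpina3k (2.64) and Serpina6 (1.30). Between F/F and W/W mice it passed for Serpina1a (0.81), Serpina1b (0.58), Serpina1c (1.86), Serpina1d (1.39), Serpina3k (1.90) and Serpina6 (1.32). Between F/F and W/F mice it passed for Serpina1b (-0.41), Serpina1c (-0.996), Serpina1e (-3.67) and Serpina4-ps1 (-4.79).

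The diet response of W/F minus W/W mice differed for Serpina1a (-0.35), Serpina1b (-0.75), Serpina1c (-1.76), Serpina1d (-1.49), Serpina3k (-2.49) and Serpina3n (1.10). That of F/F minus W/W mice differed for Serpina1b (-0.62), Serpina1c (-1.21), Serpina1d (-1.63), Serpina3k (-2.58), Serpina3m (-1.08) and Serpina6 (-0.97). For Serpina1e and Serpina4-ps1 all T0901317 mice lay below the vehicle mice in W/W and above them in W/F, a difference of responses of 9.04 and 9.54 (log2) that was not tested. Both genes were selected on their W/W falls, which are part of these differences, so nothing is read from their size.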

How the results depend on the processing

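After rescaling, the number of members called between F/F and W/W mice with T0901317 was 3 in place of 5, and 3 with no filter on low values. Between F/F and W/F mice 2 members were called on chow in place of 4, and 1 with vehicle in place of 2, both with no filter and when only the libraries of the groups compared were fitted; between F/F and W/W mice on chow that narrower fit called 2 in place of 4. Leaving out 1 library at a time gave 3 to 5 members between F/F and W/W mice with T0901317, 2 to 6 between F/F and W/F mice on chow and 1 to 2 with vehicle. The other counts stayed within 1.5 times under every alternative run. Signs turned only for values that had passed no test. After rescaling, Serpina1e with T0901317 in F/F mice was 0.13 and Serpina4-ps1 between F/F and W/F vehicle mice -0.059, while the untested Serpina1e differences from W/W vehicle mice moved to -4.19 in W/F and -4.48 in F/F. With 1 library left out these ranged from -0.45 to 0.14 for Serpina1e with T0901317 in F/F mice, from -0.41 to 0.38 for Serpina1e and from -0.16 to 0.28 for Serpina4-ps1 between F/F and W/F vehicle mice, and from -0.50 to 0.096 for Serpina4-ps1 between W/F and W/W chow mice. The cause was not tested.

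Replicate numbers did not pair the mice: deviations of the 144 pairs with the same number had a median correlation of 0.0131 (-0.174 to 0.297), those of the other 432 pairs one of -0.00643, and 12 of 36 libraries correlated best with their own number. With the replicate block, 9 members were called with T0901317 in W/F mice, as without it, and 5 against 4 in the T0901317 response of F/F minus W/F mice, and no count of calls moved by more than 1.5 times. Depth was thinnest behind Serpina4-ps1, whose lowest library held 8 reads.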
